A study of Homo sapiens with 6 samples.

Results

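Receptor-type protein tyrosine phosphatases are membrane proteins with an extracellular part, 1 membrane-spanning segment and, inside the cell, 1 or 2 phosphatase domains that remove phosphate from tyrosines. They act against tyrosine kinases at the cell surface, and several of them sit at contacts between epithelial cells. The 10 genes described here are PTPRJ, PTPRA, PTPRE, PTPRF, PTPRG, PTPRH, PTPRK, PTPRM, PTPRS and PTPRU, chosen by gene name from 58735 genes in the table. PTPRJ was singled out because of its difference between the groups compared here, so its own difference is given as a description that supports nothing, and the remaining 9 members are reported beside it.

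The groups were 3 libraries of SW480 cells transfected with an siRNA against ITGB4, which encodes the integrin β4 subunit, and 3 libraries of SW480 cells transfected with a negative control siRNA. SW480 is an established line of human colorectal cancer cells, labelled WT in both groups, and the submitters describe the libraries of each group as biological replicates. The sequence of the siRNA and the time of harvest are not given in the sources used here. All levels are FPKM as deposited by the authors, that is, read counts corrected for library size and per kilobase of gene.

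The libraries held 13715266 to 15496274 reads assigned to genes, as recovered from the FPKM values. ITGB4 was at 39.0 ± 1.80 FPKM with its own siRNA and at 69.3 ± 5.26 FPKM with control siRNA (SD, n = 3 each). The epithelial markers EPCAM, KRT8, KRT18, CDH1 and CDX2 had means of 1 FPKM or more, while VIL1 (0.706 FPKM) and CDX1 (0.0128 FPKM) did not. Of the receptor phosphatases that mark other cells, PTPRC of leukocytes had a single read over 6 libraries and PTPRB of endothelium averaged 0.00836 FPKM. The fibroblast markers COL1A2, COL3A1, DCN and LUM and the endothelial marker CDH5 were at 0 in every library. Summed over their 6 genes each, leukocyte markers ran from 2.998 to 3.65 FPKM with ITGB4 siRNA and from 3.17 to 3.61 FPKM with control siRNA. Endothelial markers summed to between 0.902 and 1.27 FPKM with ITGB4 siRNA and between 1.12 and 1.33 FPKM with control siRNA. Fibroblast markers summed to between 1.49 and 1.62 FPKM with ITGB4 siRNA and between 1.48 and 2.21 FPKM with control siRNA. These ranges overlapped, and 1 gene of each list had a mean of at least 1 FPKM. These were CD74 of leukocytes (2.207 FPKM), ESAM of endothelium (1.002 FPKM) and FBLN1 of fibroblasts (1.149 FPKM).

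The phosphatase domain closest to the membrane carries the active-site loop that defines the family: histidine, the catalytic cysteine, serine, alanine, glycine, a variable residue, glycine and arginine. A search of the longest coding transcript of each gene (GENCODE release 29, GRCh38) found this loop in 10 of 10 members. It occurred 2 times in PTPRA, PTPRE, PTPRF and PTPRS and 1 time in PTPRJ, PTPRG, PTPRH, PTPRK, PTPRM and PTPRU. PTPRJ and PTPRH are known to have a single phosphatase domain. The 24 bases that encode the first loop are shown for PTPRJ, for PTPRH of the same subfamily, for PTPRK, 1 of 3 genes with the fewest differences from PTPRJ, for PTPRE, and for PTPRU with the most differences. Capitals mark the codon of the cysteine in the loop. A match says nothing about activity, and loops were counted, not phosphatase domains.

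PTPRJ: catTGCagtgctggggtcggaagg

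PTPRH: cacTGCagtgctggcgtgggtcgc

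PTPRK: catTGCagtgctggtgctggacga

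PTPRE: cacTGTagcgcgggcgtgggccgg

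PTPRU: cacTGCagcgcgggcaccggccgc

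The PTPRJ stretch begins at codon 1243 of 1342 in transcript PTPRJ-208 and lies, with the intron it spans, at chr11:48163611-48164395 (plus strand). The other stretches lie at chr19:55182136-55185509 (PTPRH, minus strand), chr6:127983362-127985728 (PTPRK, minus strand), chr10:128068279-128069707 (PTPRE, plus strand) and chr1:29312699-29315387 (PTPRU, plus strand). PTPRG, PTPRK and PTPRM differ from the PTPRJ stretch at 5 of 24 bases, PTPRH at 6, PTPRA and PTPRS at 7, PTPRE and PTPRF at 8 and PTPRU at 9. In 10 of 10 members an intron interrupts this stretch after its base 8, within the serine codon that follows the cysteine. The intron is 761 bases long in PTPRJ and runs from 85 bases in PTPRF to 3350 bases in PTPRH. The members thus share the position of this splice junction while their genes lie on 8 chromosomes and span 28259 bases (PTPRH) to 840080 bases (PTPRM).

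From highest to lowest, the mean level over the 6 libraries ran in the order PTPRA, PTPRJ, PTPRU, PTPRF, PTPRK, PTPRE, PTPRG, PTPRS, PTPRH and PTPRM. FPKM divides by the deposited gene length, 4469 bases for PTPRA and 9620 for PTPRJ, and not by the length of the transcripts present. The order of the members therefore depends on those lengths. Neighbours in this order whose libraries overlapped were PTPRA with PTPRJ, PTPRJ with PTPRU, and PTPRE with PTPRG. PTPRA, which activates SRC by removing the phosphate from its inhibitory tyrosine, had 14.2, 15.7 and 14.4 FPKM in ITGB4 siRNA libraries 1, 2 and 3, against 14.1, 15.9 and 14.7 FPKM in control siRNA libraries 1, 2 and 3. The groups overlapped and PTPRA averaged 14.7 ± 0.81 FPKM with ITGB4 siRNA and 14.9 ± 0.917 FPKM with control siRNA (SD, n = 3 each). PTPRU, a relative of the homophilic adhesion receptors PTPRK and PTPRM, averaged 11.3 ± 0.382 FPKM with ITGB4 siRNA and 11.6 ± 0.485 FPKM with control siRNA (SD, n = 3 each), again with overlap.

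PTPRM was almost silent, with 2, 0 and 1 reads in ITGB4 siRNA libraries 1, 2 and 3 and 0, 2 and 2 reads in control siRNA libraries 1, 2 and 3. At this depth neither a difference nor its absence can be shown for PTPRM. PTPRH, a phosphatase of the microvilli of gut epithelium in mouse, was low as well, at 0.325 to 0.382 FPKM with ITGB4 siRNA and 0.311 to 0.574 FPKM with control siRNA. Genes with a mean of at least 1 FPKM were tested, and 8 of the 10 members passed. PTPRS, at a mean of 2.10 FPKM, was the lowest inside this limit and PTPRH, at 0.409 FPKM, the highest outside it.

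**Figure D1:**
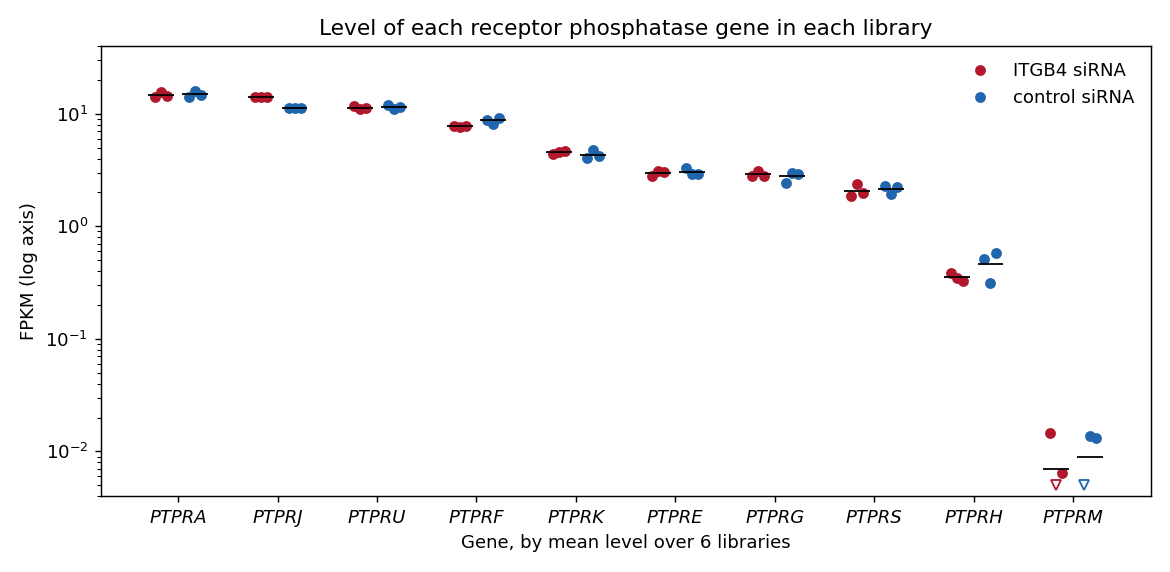
FPKM on a log axis for the 10 receptor phosphatase genes, with 1 point per library, ITGB4 siRNA (red) left of control siRNA (blue), and a line at each group mean; open triangles mark libraries at 0. PTPRJ is higher in the 3 ITGB4 siRNA libraries, PTPRF is lower, the other members overlap, and PTPRM has at most 2 reads in a library. Of all genes tested, 5.75% had separated groups with ITGB4 siRNA higher and 5.36% with ITGB4 siRNA lower.

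PTPRJ, also known as DEP-1 or CD148, is a phosphatase of growth factor receptors such as MET and of junction proteins. It was 24.8% higher with ITGB4 siRNA. It had 13.97, 13.94 and 14.19 FPKM in ITGB4 siRNA libraries 1, 2 and 3, against 11.33, 11.13 and 11.28 FPKM in control siRNA libraries 1, 2 and 3. Every ITGB4 siRNA library was above every control library, and both groups were narrow. Of all genes tested, 5.75% were separated with ITGB4 siRNA higher, so nothing is read from the separation of PTPRJ. The means were 14.04 ± 0.137 FPKM with ITGB4 siRNA and 11.2 ± 0.101 FPKM with control siRNA (SD, n = 3 each). The log2 fold change of FPKM + 1 was 0.30. In bulk RNA, more cells with the transcript and more transcript per cell cannot be told apart.

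The PTPRJ gene (ENSG00000149177) occupies 47980558 to 48170841 on the plus strand of chromosome 11 in GRCh38. Its level rested on 1862, 2049 and 2126 reads in ITGB4 siRNA libraries 1, 2 and 3 and on 1612, 1587 and 1653 reads in control siRNA libraries 1, 2 and 3. Per read assigned to genes, the summed reads gave a ratio of 1.254. It is a description only, since PTPRJ was chosen by this contrast. PTPRJ-AS1, an antisense RNA inside the span of PTPRJ, shares no exon bases with it and had 1 to 5 reads per library, with 9 in all with ITGB4 siRNA and 6 with control siRNA.

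The replicate spread of PTPRJ was below the spread that counting of its reads alone would give. The SD over 3 libraries was 0.137 FPKM with ITGB4 siRNA and 0.101 FPKM with control siRNA, whereas Poisson counting gives 0.313 FPKM with ITGB4 siRNA and 0.28 FPKM with control siRNA. A gene chosen for a clear contrast tends to have a small replicate spread, so this is a description of these libraries only. PTPRF (0.103 against a counting SD of 0.22 FPKM), PTPRH and PTPRK were below it with ITGB4 siRNA but above it with control siRNA.

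**Figure D2:**
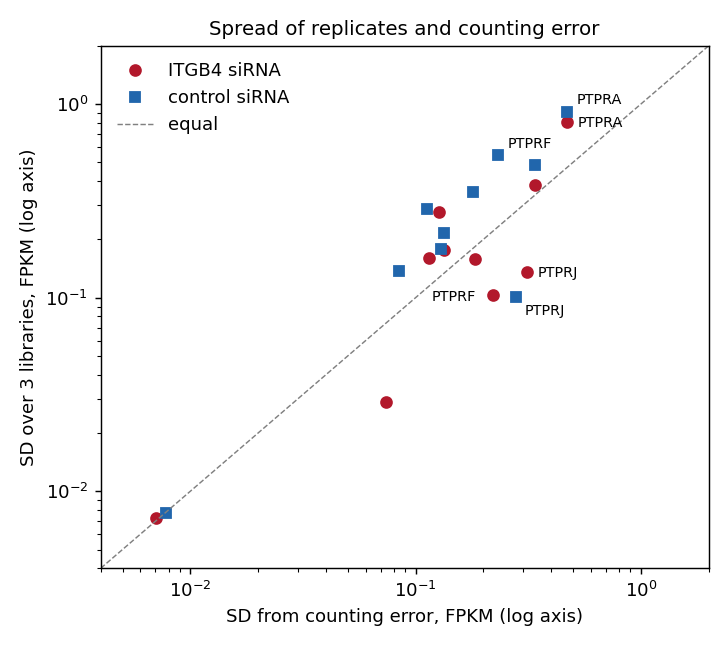
SD over the 3 libraries of a group (y, FPKM, log axis) against the SD from Poisson counting of the reads (x, FPKM, log axis), 1 point per gene and group, circles for ITGB4 siRNA and squares for control siRNA; the dashed line marks equality. Both PTPRJ points lie under the line (0.137 and 0.101 FPKM observed), while both PTPRA points lie above it (0.81 and 0.917 FPKM).

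By FPKM, which depends on the gene lengths used, the position of PTPRJ within the family differed between the groups. With ITGB4 siRNA its values overlapped those of PTPRA and lay above all of those of PTPRU, whereas with control siRNA they overlapped those of PTPRU and lay below all of those of PTPRA. PTPRJ made up 23.2 ± 0.483% of the summed FPKM of the 10 members with ITGB4 siRNA and 19.0 ± 0.219% with control siRNA (SD, n = 3 each). The 9 other members summed to 46.6 ± 0.999 FPKM with ITGB4 siRNA and 47.9 ± 0.404 FPKM with control siRNA (SD, n = 3 each), and these sums overlapped. On the log2 scale PTPRJ stood 1.78 ± 0.035 above the mean of the 9 other members with ITGB4 siRNA and 1.45 ± 0.015 above it with control siRNA (SD, n = 3 each), a difference of 0.33. The mean of the 9 gives equal weight to PTPRH and PTPRM, which had few reads. Because PTPRJ was chosen by this contrast, these differences carry no test.

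**Figure D3:**
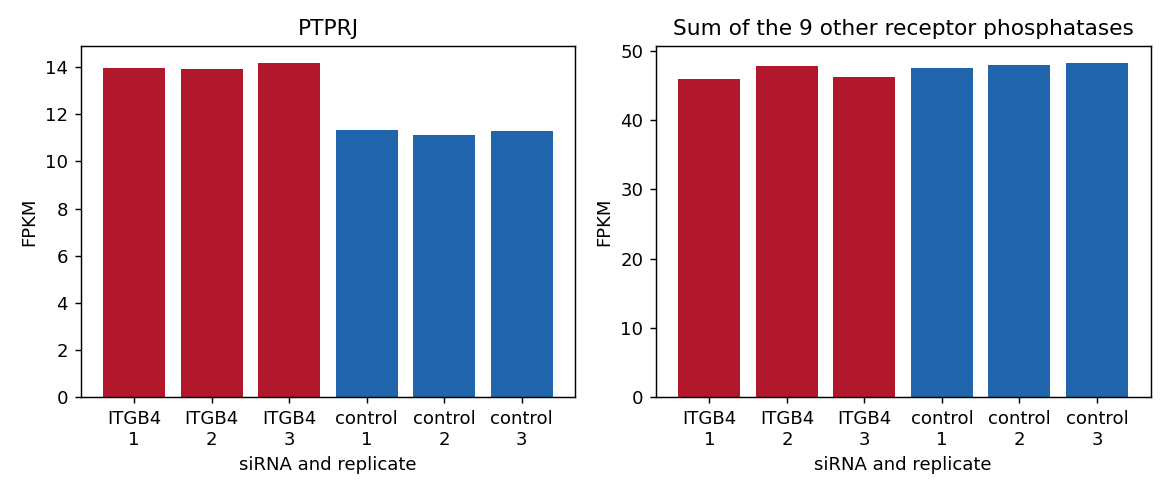
Bars give FPKM per library for PTPRJ (left) and for the sum of the 9 other receptor phosphatase genes (right), ITGB4 siRNA in red and control siRNA in blue, both axes from 0. PTPRJ is at 13.9 to 14.2 FPKM with ITGB4 siRNA and 11.1 to 11.3 FPKM with control siRNA, while the sums of the other members run from 45.9 to 47.7 FPKM with ITGB4 siRNA and from 47.5 to 48.3 FPKM with control siRNA.

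PTPRF, also known as LAR, is a phosphatase of cell adhesion sites that associates with the cadherin and β-catenin complex. It had 7.75, 7.60 and 7.80 FPKM in ITGB4 siRNA libraries 1, 2 and 3, against 8.84, 8.12 and 9.19 FPKM in control siRNA libraries 1, 2 and 3. These groups did not overlap either, and the mean with ITGB4 siRNA differed from that with control siRNA by -11.5%. The log2 fold change was -0.16 (SE 0.0576, 95% interval -0.29 to -0.02), and it did not pass over all genes tested (limma adjusted p = 0.813). PTPRJ was therefore not the only member with separated groups. Of all genes tested, 11.1% had separated groups (5.75% higher and 5.36% lower), so nothing is read from the separation of PTPRF.

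The other 6 tested members overlapped between the groups, and none passed. PTPRK, a receptor of homophilic contacts, was at 4.54 ± 0.158 FPKM with ITGB4 siRNA and 4.33 ± 0.353 FPKM with control siRNA (SD, n = 3 each; log2 fold change 0.06, 95% interval -0.10 to 0.22). PTPRG, whose extracellular part carries a domain like carbonic anhydrase, was at 2.89 ± 0.16 FPKM with ITGB4 siRNA and 2.77 ± 0.289 FPKM with control siRNA (SD, n = 3 each; 0.05, -0.15 to 0.24). PTPRE, the closest relative of PTPRA, was at 2.98 ± 0.177 FPKM with ITGB4 siRNA and 3.03 ± 0.216 FPKM with control siRNA (SD, n = 3 each; -0.02, -0.19 to 0.16). The values of each of these genes overlapped between the groups. PTPRS, which binds heparan and chondroitin sulphate chains, was at 2.06 ± 0.277 FPKM with ITGB4 siRNA and 2.14 ± 0.179 FPKM with control siRNA (SD, n = 3 each; -0.04, -0.27 to 0.19). The intervals of PTPRA (-0.16 to 0.14) and PTPRU (-0.16 to 0.09) included 0 as well. The limma adjusted p of these 6 members was 0.998, and the signs of PTPRA, PTPRE, PTPRG and PTPRS turned when 1 or another library was left out.

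**Figure D4:**
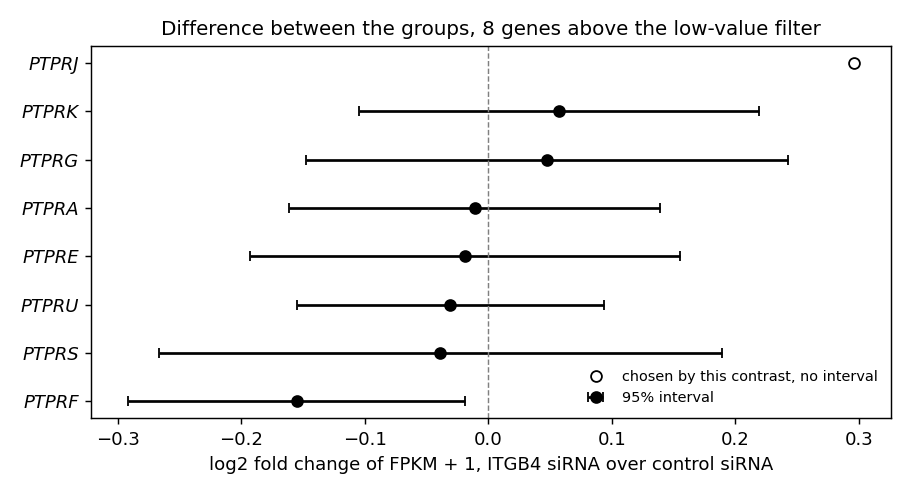
log2 fold change of FPKM + 1, ITGB4 siRNA over control siRNA, for the 8 members above the low-value filter, with 95% intervals from limma for 7 of them; PTPRJ (open circle, 0.30), chosen by this contrast, has none. The interval of PTPRF (-0.16) ends just below 0 before any adjustment, and those of the other 6 members include 0.

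Of the 7 tested members other than PTPRJ, limma called 0 changed at an adjusted p under 0.05, against 6 of 12871 genes tested (0.0466%), of which 3 were higher (0.0233%) and 3 lower (0.0233%). Before adjustment, 1 of these 7, PTPRF, had a limma p under 0.05 and was lower, against 5.83% of all genes tested (2.91% higher and 2.92% lower). PTPRF was also the 1 of these 7 whose groups did not overlap, against 11.1% of all genes tested (5.75% higher and 5.36% lower). With limma-voom on reads recovered from the FPKM values, 0 of these 7 were called, against 0.202% of all genes tested (26 genes, 0.0932% higher and 0.109% lower). The members were chosen with this contrast known, so nothing is read from these counts. A log2 fold change of at least the size of that of PTPRJ was found in 587 of 12871 genes (4.56%), and in 46 of 6817 protein-coding genes with a mean of at least 5 FPKM. The median log2 fold change was -0.01 over the 8 members and 0.00 over all genes tested.

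Annotated neighbours can add reads to some members. PTPRA shares exon bases with VPS16 on the same strand, and VPS16 was at 10.2 ± 0.563 FPKM with ITGB4 siRNA and 9.91 ± 0.105 FPKM with control siRNA (SD, n = 3 each). PTPRG, PTPRK and PTPRM overlap exons of antisense genes, of which PTPRG-AS1 had at most 5 reads in a library and AL590006.1 and AP001094.1 had 0. Whether the counting used the strand is not given in the sources used here.

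The longest annotated 3′ UTR of each member was searched on its sense strand for 4 words of 7 bases, taken from an earlier scan of these same fold changes and so chosen after values were seen. Among 10556 tested protein-coding genes with a 3′ UTR, ATTGGAT occurs in 10.3%. The word TTGGATA, which shares 6 bases with it, occurs in 11.4% of these genes. TCGGAGA occurs in 2.2%, and its neighbour by 6 shared bases, the word CGGAGAA, occurs in 2.66%. Any of them is present in 20.6% of these genes and in 0 of 10 members, of which only 8 were among the genes tested. The PTPRJ 3′ UTR searched is 3479 bases long. No match says only that these letters are not in the window searched.

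Of the 10 receptor-type phosphatase genes that are not members, 2 were above 1 FPKM. PTPRN2, a protein of secretory granule membranes without ordinary phosphatase activity, was the most abundant receptor-type gene of the table at 39.8 ± 1.14 FPKM with ITGB4 siRNA and 41.6 ± 1.53 FPKM with control siRNA (SD, n = 3 each), with a limma adjusted p of 0.998 for a log2 fold change of -0.06. Its groups did not overlap, but the gap was narrow, since the highest ITGB4 siRNA library had 40.5 FPKM and the lowest control siRNA library 40.6 FPKM. PTPRZ1, a relative of PTPRG, was at 1.96 ± 0.142 FPKM with ITGB4 siRNA and 2.06 ± 0.19 FPKM with control siRNA (SD, n = 3 each). PTPRB, PTPRC, PTPRD, PTPRN, PTPRO, PTPRQ, PTPRR and PTPRT had 0 to 4 reads per library.

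The cytoplasmic phosphatases of the same enzyme class were compared from a list of 17 genes, of which 12 were tested. Limma and limma-voom called 0 of them, and at an unadjusted p under 0.05 limma had 1 lower gene, PTPN3, and 0 higher genes, against 2.92% lower and 2.91% higher among all genes tested. PTPN3, a phosphatase with a FERM domain, had 7.58, 8.25 and 7.72 FPKM in ITGB4 siRNA libraries 1, 2 and 3, against 8.47, 8.78 and 8.72 FPKM in control siRNA libraries 1, 2 and 3 (log2 fold change -0.13, limma adjusted p = 0.852). Its groups did not overlap. The other gene of the list with separated groups was PTPN1, a phosphatase of the insulin receptor, chosen here after its values were seen, at 56.6 ± 0.279 FPKM with ITGB4 siRNA and 57.7 ± 0.387 FPKM with control siRNA (SD, n = 3 each), a log2 fold change of -0.03. Separated groups thus occurred in 2 lower and 0 higher of the 12 tested genes, against 5.36% lower and 5.75% higher among all genes tested. PTPN14 (-0.09), PTPN18 (-0.09) and PTPN4 (0.10) had overlapping groups. The list's median log2 fold change was -0.02.

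Substrates and ligands reported for PTPRJ were measured from a list of 21 genes with 14 tested. Limma and limma-voom called 0 of them and 0 had an unadjusted limma p under 0.05, against 5.83% of all genes tested, with a median log2 fold change of 0.03. THBS1, an extracellular ligand of PTPRJ, had 1.31, 1.19 and 1.21 FPKM in ITGB4 siRNA libraries 1, 2 and 3, against 1.45, 1.46 and 1.38 FPKM in control siRNA libraries 1, 2 and 3 (log2 fold change -0.12, limma adjusted p = 0.998). The THBS1 groups did not overlap and rested on 166 to 198 reads per library. PLCG1, a phospholipase downstream of receptor kinases, was at 20.2 ± 0.568 FPKM with ITGB4 siRNA and 18.7 ± 0.718 FPKM with control siRNA (SD, n = 3 each), with a limma adjusted p of 0.883 for a log2 fold change of 0.11. FYN, a SRC family kinase, had a log2 fold change of 0.06 with separated groups, and INSR, the insulin receptor, one of -0.12 with overlap. Separated groups occurred in 2 higher and 1 lower of the 14 tested genes, against 5.75% higher and 5.36% lower among all genes tested.

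Partners of the other members gave 0 calls by limma and limma-voom as well. These lists are not separate evidence, since some tested genes recur. FYN and SRC are among both the PTPRJ substrates and the kinases. JUP and CTNND1 are among both the PTPRJ substrates and the junction proteins, and CTNNB1 among both the LAR partners and the junction proteins. Of the kinases and adaptors that PTPRA and PTPRE act on or with, 10 were tested, with a median log2 fold change of 0.00. CSK, the kinase that adds the inhibitory phosphate to SRC, had 15.2, 14.9 and 14.9 FPKM in ITGB4 siRNA libraries 1, 2 and 3, against 14.3, 12.0 and 13.1 FPKM in control siRNA libraries 1, 2 and 3 (log2 fold change 0.18, limma adjusted p = 0.806). CSK was the 1 gene of these 10 with an unadjusted limma p under 0.05, against 2.91% higher among all genes tested. Its groups did not overlap, and the control siRNA libraries spread more than the ITGB4 siRNA libraries. FYN, with the values given above, was the other of these 10 with separated groups, against 5.75% higher among all genes tested. YES1 (0.07) and LCK (-0.16) had overlapping groups.

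The 9 tested partners of the LAR family (PTPRF, PTPRS and PTPRD) had a median of -0.02, and the 11 tested junction proteins linked to PTPRK and PTPRM one of 0.01. Neither list had a gene at an unadjusted limma p under 0.05 or with separated groups, against 5.83% and 11.1% of all genes tested. SDC3, a heparan sulphate proteoglycan, was at 18.8 ± 1.54 FPKM with ITGB4 siRNA and 17.1 ± 1.24 FPKM with control siRNA (SD, n = 3 each; log2 fold change 0.13). TRIO (-0.04), a guanine nucleotide exchange factor bound by LAR, GPC4 (-0.04) and PPFIA3 (0.04) were closer to 0. Among the junction proteins the values were 0.06 for IQGAP1, 0.06 for JUP, 0.04 for AFDN and 0.03 for CTNND1, the p120 catenin.

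**Figure D5:**
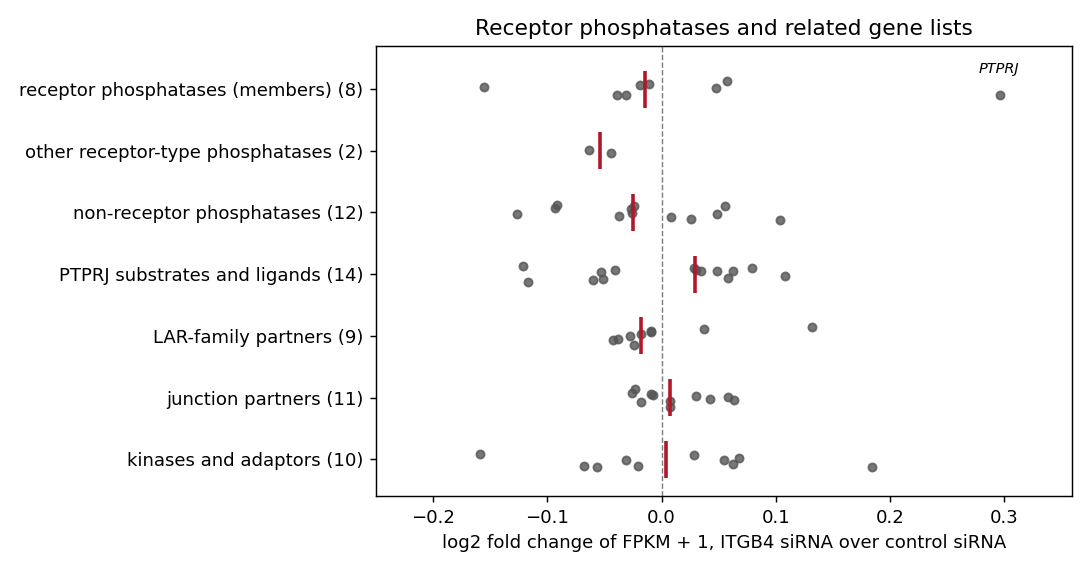
log2 fold change of FPKM + 1, ITGB4 siRNA over control siRNA, with 1 point per tested gene, 1 row per gene list with the number tested in brackets, and a red line at each list's median (points are shifted vertically for visibility). PTPRJ at 0.30, chosen by this contrast, lies to the right of all other points, and the medians run from -0.05 to 0.03. Of all genes tested, 4.56% had a change of at least the size of that of PTPRJ. Of 6817 protein-coding genes with a mean of at least 5 FPKM, 46 had such a change. A gene in more than 1 list is plotted in each.

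Among 6816 other protein-coding genes with a mean of at least 5 FPKM, the 5 whose log2 level followed that of PTPRJ most closely over the 6 libraries were HABP4, GANAB, MAN2B1, FHL2 and MED11. Their Pearson correlations with PTPRJ were 0.998, 0.996, 0.985, 0.985 and 0.985 in that order. With 6 libraries in 2 groups, a gene that differs between the groups gains a high correlation, and all 5 genes had separated groups with ITGB4 siRNA higher. GANAB, a catalytic subunit of an endoplasmic reticulum glucosidase, averaged 129.8 ± 1.90 FPKM with ITGB4 siRNA and 92.6 ± 1.82 FPKM with control siRNA (SD, n = 3 each). HABP4, an RNA-binding and hyaluronan-binding protein, averaged 6.67 ± 0.235 FPKM with ITGB4 siRNA and 4.47 ± 0.0288 FPKM with control siRNA (SD, n = 3 each), a log2 fold change of 0.49. MAN2B1 (0.15), a lysosomal mannosidase, and FHL2 (0.19), a LIM domain protein, differed less than PTPRJ, while MED11 (0.54), a Mediator subunit, differed more. Of the members above 5 FPKM, PTPRF had a correlation of -0.82 with PTPRJ, PTPRU -0.32 and PTPRA -0.13.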

How the data were processed

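Poly-A RNA of 6 SW480 libraries was sequenced, 3 per siRNA, and groups were taken from the sample titles. The authors deposited FPKM for 58735 genes, with gene lengths and a mean FPKM per group. Per the submitters' processing notes, the build was GRCh38 and the tools included DESeq2 and edgeR, with no role stated. The aligner and counting tool are not given in the sources used here.

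Genes with a mean of at least 1 FPKM over the 6 libraries (12871) were fitted as log2(FPKM + 1) with limma 3.58.1 (trend, R 4.3.3), with 1 siRNA coefficient. Fold changes on this scale understate changes of low genes. Tests were two-sided, with Benjamini-Hochberg adjustment over all genes tested and a threshold of 0.05. Reads were recovered from FPKM, gene length and the value of 1 read (100% of values whole at a tolerance of 0.01) for limma-voom and counting error. The fit was tested on simulated data. Sequences came from GENCODE 29 transcripts, and 58724 of 58735 genes had the same coordinates there as in the deposited table. Plots used matplotlib 3.10.9.

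The members and gene lists were chosen with earlier results of these data known. Named genes were all members, all other receptor-type genes, up to 4 genes per list with the smallest p, and the 5 genes most correlated with PTPRJ. Alternatives were another test, scaling, pseudocount or filter, a replicate term, and leaving out each library. Nothing states separate cultures beyond the term biological replicates, so p-values measure only the spread between these libraries.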

Additional observations from a re-analysis of the deposited data

How the results depend on the processing

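The log2 fold change of PTPRJ was 0.30 and stayed above 0 in every alternative run. Because PTPRJ was chosen by this contrast and its groups were separated, leaving out 1 library could not turn its sign. The kept sign is therefore a description only. The PTPRJ fold change was 0.33 with limma-voom on recovered reads and 0.32 both as TPM and with a pseudocount of 0.1. It ran from 0.29 to 0.30 without 1 library. Its distance from the mean of the 9 other members was 0.40, 0.36 and 0.37 in the first 3 of these and ran from 0.31 to 0.35 without 1 library. That mean gives equal weight to PTPRH and PTPRM, which were below the filter. Both had fewer reads with ITGB4 siRNA than with control siRNA (PTPRH 68 against 91, PTPRM 3 against 4). Part of the distance therefore rests on genes with few reads. The shifts with limma-voom, TPM and the pseudocount exceed the replicate SD of 0.0125 (fold change) and 0.0269 (distance), those without 1 library do not, and a larger pseudocount lowers folds by construction.

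The number of members called was 0 in the main fit, so PTPRJ was not called there. The number was 1 with limma-voom (PTPRJ, chosen by this contrast) and 0 in the other alternatives, from 0 to 0 without 1 library. The cause of this difference was not tested. The number of genes called over the table was 26 with limma-voom, 0 with no filter on low values (31956 tested, 1356 at an unadjusted p under 0.05), and 0 to 7 without 1 library, with 0 without ITGB4 siRNA replicate 1, 2 or 3 and 3 without control siRNA replicate 3. The replicate block gave 0 genes called (1064 at an unadjusted p under 0.05) and changed no call of a member. Deviations of libraries with the same number correlated at 0.173, 0.102 and -0.01, so the numbers were not taken to pair the libraries, and ITGB4 siRNA library 3 correlated best with control siRNA library 2 (0.0862). Genes of the other lists gave 0 calls throughout.

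Of the values of the 7 other tested members, 80 kept direction and side of the threshold and 7 turned sign, each without 1 library. Without 1 library, PTPRA ran from -0.0525 to 0.0339, and was at 0.0165 and 0.00347 without ITGB4 siRNA replicates 1 and 3. PTPRE ran from -0.0464 to 0.0251, and was at 0.0168 without ITGB4 siRNA replicate 1. PTPRS ran from -0.11 to 0.00994 and PTPRG from -0.017 to 0.0873. With a mean of at least 5 FPKM required, PTPRE, PTPRG, PTPRK and PTPRS gave no value. PTPRF ran from -0.20 to -0.12 without 1 library (limma adjusted p 0.508 to 1). The planned quasi-likelihood count test was not run. The deposited values are FPKM, and reads recovered from them were tested with limma-voom instead. Depth limits PTPRM and PTPRH.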
